A study of Mus musculus with 20 samples.

Results

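Human gene expression was examined in the livers of humanized mice after knockdown of HuR, an RNA-binding protein encoded by ELAVL1. The genes considered were all human genes with a mean of at least 1 TPM (transcripts per 1000000) over the 8 livers, which left 12738 of the 60607 human genes listed, 9926 of them protein coding. No gene of the same symbol, ignoring case, was listed for WT mouse livers for 3607 of the 12738 genes, and these genes had no part in a comparison of the species by symbol. RNA-seq was performed on 4 livers with HuR knockdown (HuR KD) and on 4 livers of mice given a control virus (LacZ).

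All 8 mice were TK-NOG mice, an immune-deficient strain in which the mouse albumin promoter drives a viral thymidine kinase, so that ganciclovir kills the mouse hepatocytes. They received ganciclovir at 25 mg/kg at 8 to 9 weeks of age and 1000000 human hepatocytes through the spleen 1 week later. Mice were used 8 to 12 weeks after the transplantation, with at least 0.5 mg/ml of human albumin in serum. The adenovirus carried an shRNA against human HuR or the LacZ control, at 2000000000 pfu per mouse into a vein, and livers were taken on day 7 after a 4 h fast. The other liver cells, and any mouse hepatocytes that remained, were those of the host, and the number of hepatocyte donors is not given in the sources used here. Only human genes are listed for these livers. The WT livers used below came from male C57BL/6 mice given a mouse HuR shRNA virus (n = 6) or the control virus (n = 6). The replicates were separate livers.

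HuR binds stretches rich in A and U, mostly in the 3′ untranslated region of mRNAs, and is best known for slowing the decay of short-lived transcripts. Hepatocytes make most plasma proteins and lipoproteins, burn fatty acids in fasting, and clear alcohol, aldehydes and drugs. A change in mRNA level after loss of HuR can be direct or can follow from other genes, and an mRNA level alone does not separate these.

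The recovered depth ranged from 2670469 to 20302454 reads on human genes per liver. Mitochondrial ribosomal RNA made up 27.2% to 49.1% of the deposited TPM and protein-coding genes 28.9% to 37.8%, and most of the rest was RN7SL1 and RN7SL3, the RNA of the signal recognition particle. The protein-coding share was 31.2% ± 2.22 (SD, n = 4) in HuR KD and 33.2% ± 3.54 in LacZ livers, a difference of -2.02 percentage points (exact permutation p = 0.371, two-sided, over all 70 groupings of the livers). HuR KD 4 and LacZ 2, the 2 deepest livers, stood apart from the others. They correlated with each other at r = 0.965 across human genes, against 0.866 to 0.931 for every other pair of livers, and both had 49.1% of their TPM in mitochondrial ribosomal RNA. They belong to different groups. Counts of called genes are given below with and without them, as are named protein-coding genes whose call changed.

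**Figure D1:**
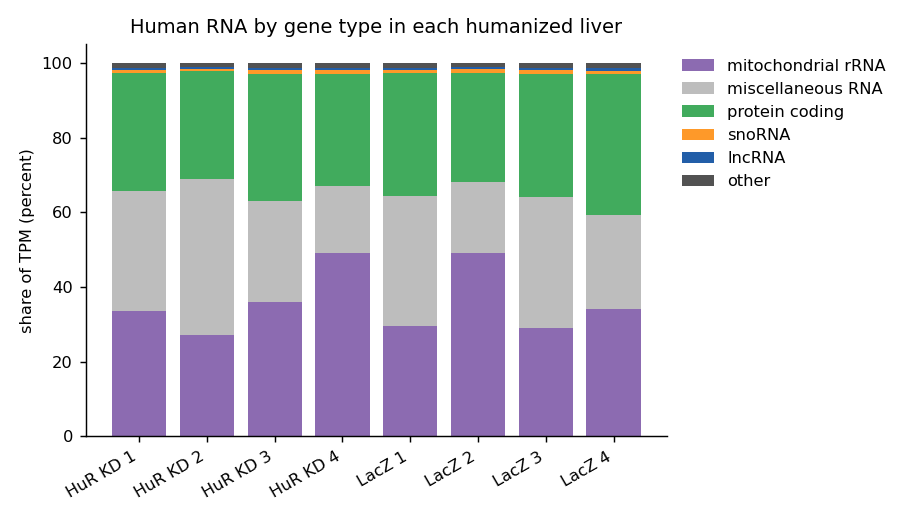
Share of deposited TPM (percent, y axis) by gene type in each humanized liver (x axis). Bars are stacked from 0 to 100% for single livers. HuR KD 4 and LacZ 2 both have 49.1% in mitochondrial ribosomal RNA, and the protein-coding share lies between 28.9% and 37.8% in every liver.

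The human RNA carried hepatocyte markers. All 20 of the hepatocyte markers passed the filter, with ALB at 32380 to 55333 TPM in HuR KD and 36693 to 73361 TPM in LacZ livers. No endothelial marker of 13, no B or plasma cell marker of 10 and no erythroid or neutrophil marker of 10 reached a mean of 1 TPM. Of 14 macrophage markers 3 did (CD14, LYZ and CD163), while CLEC4F, MARCO, VSIG4 and C1QA were listed at 0 in every liver. LYZ, which encodes lysozyme, was at 6.32 to 67.3 TPM in HuR KD and 18.5 to 142 TPM in LacZ livers (rescaled adjusted p = 0.391, or 0.0193 without the 2 deepest livers). Of stellate cell and fibroblast markers 2 of 13 passed the filter, and of T and NK cell markers 1 of 13. Of the markers of cholangiocytes, the cells that line bile ducts, 9 of 12 passed the filter, and their summed level was 19.1 to 53.9 TPM in HuR KD against 73.5 to 135 TPM in LacZ livers. The groups did not overlap in this sum, but did, through HuR KD 4 alone, once CD24 was left out of it. KRT19, a keratin that defines this cell type, stayed at or under 0.585 TPM in every liver, and KRT7 ranged from 0.481 to 11.2 TPM with overlapping groups. In bulk tissue, fewer cells of a type and less RNA per cell cannot be told apart.

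HuR mRNA was lower in the knockdown livers. ELAVL1 (ENSG00000066044.15) was at 4.05, 2.37, 3.54 and 3.9 TPM in HuR KD and at 5.76, 4.77, 6.17 and 5.99 TPM in LacZ livers. Every HuR KD liver was thus below every LacZ liver, at a mean of 61.0% of the control level as deposited and 64.7% after rescaling over protein-coding genes. The difference had an exact permutation p of 0.0286, the smallest that 4 against 4 livers allow, and a log2 fold change of -0.59 ± 0.17 (SE). It did not pass an adjusted p of 0.05 across all genes (adjusted p = 0.214 as deposited, 0.142 rescaled and 0.0946 rescaled without the 2 deepest livers). Between 34 and 301 reads supported the value in a HuR KD liver and between 68 and 365 in a LacZ liver.

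Whether the human transcriptome moved in one direction depended on the RNA against which genes were scaled. Because TPM as deposited were computed over all human genes, the non-coding RNA that dominates them sets the level of every mRNA, so each liver was also rescaled to 1000000 over protein-coding genes. With deposited TPM, 4 genes rose (0.0314% of 12738) and 23 fell (0.181%), where rose or fell means an adjusted p under 0.05. With rescaled TPM, 36 protein-coding genes rose (0.363% of 9926) and 55 fell (0.554%). At the unadjusted p under 0.05 that the study used, 458 genes were higher (3.6%) and 1003 lower (7.87%) as deposited, while 692 were higher (6.97%) and 778 lower (7.84%) after rescaling. Over the same 9926 protein-coding genes, deposited TPM gave 369 higher and 876 lower. The higher genes thus made up 29.6% of these calls on deposited and 47.1% on rescaled TPM (31.3% on deposited TPM over all gene types), and the median log2 fold change of the protein-coding genes moved from -0.06 to 0.02.

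The rescaled calls held the deposited ones. All 24 protein-coding genes called on deposited TPM were among the 91 called on rescaled TPM, with the same direction, and 67 genes were called on rescaled TPM only. Those with the smallest p among the 67 were MEP1B, SYT7 and ACSL1, which rose, and SLC38A1, SLC25A43 and PTGES3, which fell. In all 91 genes the HuR KD and LacZ livers did not overlap, as in 442 (all HuR KD livers higher) and 512 (all lower) of the 9926 genes. Each of the 91 kept an unadjusted p under 0.05 in limma when any 1 liver was left out. Their direction could not change in those fits, since the groups do not overlap. The fits also reuse livers by which the genes were picked, so they are no separate support.

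The number of adjusted calls depended on which livers were included. Without HuR KD 1, 2, 3 or 4, there were 6, 3, 4 and 193 rescaled calls, and without LacZ 1, 2, 3 or 4, there were 3, 283, 12 and 3. The deposited counts were 2, 0, 0 and 14 without HuR KD 1 to 4 and 0, 163, 0 and 0 without LacZ 1 to 4. Leaving out both deepest livers gave 467 rescaled calls, 226 higher (2.28%) and 241 lower (2.43%), among them all 91, whose log2 fold changes were then 0.934 to 1.31 times as large. The same omission gave 99 deposited calls, of which 20 were among the 27.

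**Figure D2:**
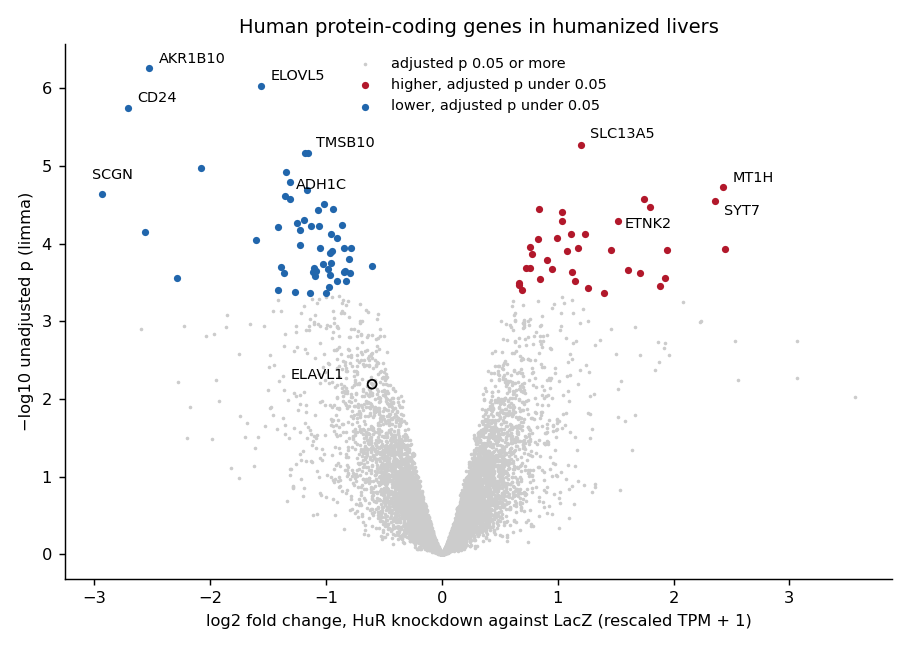
Each point is 1 of 9926 human protein-coding genes, with the log2 fold change of HuR KD against LacZ on rescaled TPM + 1 (x axis) and −log10 of the unadjusted limma p (y axis). The 36 genes that rose are red and the 55 that fell are blue, AKR1B10 and ELOVL5 lie highest, and ELAVL1 (open circle) lies below the called genes.

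Enzymes of lipid elongation and lipoprotein assembly were among the genes that fell. ELOVL5 (ENSG00000012660.14), which elongates polyunsaturated fatty acids, was at 15, 17, 14.2 and 18.1 TPM in HuR KD and at 54, 40.6, 52.7 and 57.1 TPM in LacZ livers. The highest HuR KD liver was far below the lowest control, and the rescaled level was 2.95 times lower with knockdown (log2 fold change -1.56 ± 0.15 SE, adjusted p = 0.00462). MTTP, which loads triglyceride onto apolipoprotein B, was at 108, 90, 113 and 127 TPM in HuR KD and at 239, 201, 193 and 262 TPM in LacZ livers. It fell to 52.2% of the control on rescaled TPM (adjusted p = 0.0175). SCD, the desaturase that makes monounsaturated fatty acids, had means of 259 ± 20.3 and 571 ± 169 TPM (SD, n = 4 each) without overlap, and did not pass the threshold (rescaled adjusted p = 0.0513) with all livers, but did without the 2 deepest (adjusted p = 0.00385).

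Single reductases and dehydrogenases that clear aldehydes and alcohols fell. AKR1B10 (ENSG00000198074.10), an aldo-keto reductase that reduces retinal and lipid aldehydes, was at 130, 128, 189 and 143 TPM in HuR KD and at 987, 476, 1117 and 1212 TPM in LacZ livers. Its rescaled level was 5.95 times lower with knockdown (log2 fold change -2.52 ± 0.23 SE, adjusted p = 0.00462), and LacZ 2 held the lowest control value. AKR1B15, its close paralog, had means of 0.527 and 4.2 TPM and fell by 2.29 on the log2 scale, from 1 to 27 reads in HuR KD livers. Reads from such near-identical copies may be split between them, so the low member is uncertain. ADH1C (ENSG00000248144.6), a class I alcohol dehydrogenase, was at 369, 383, 430 and 450 TPM in HuR KD and at 1163, 705, 1229 and 1429 TPM in LacZ livers. It fell to 39.0% of the control after rescaling (adjusted p = 0.0151), with the same uncertainty toward ADH1A and ADH1B. ALDH1A1, a retinal dehydrogenase, had means of 589 ± 91.8 and 1049 ± 231 TPM and a rescaled adjusted p of 0.0742, or 0.00436 without the 2 deepest livers. In the list of alcohol and aldehyde dehydrogenases 1 of 21 members fell, ADH1C, while 10 had positive and 11 negative log2 fold changes, with a median of -0.03.

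Of 30 protein-coding genes in the list of aldo-keto reductases and targets of NRF2, the transcription factor that induces antioxidant genes, 4 fell and 0 rose on rescaled TPM, where 0.554% of all protein-coding genes fell. The other 2 were TXNRD1, which reduces thioredoxin and was at 17.8 to 22.8 TPM in HuR KD against 34.3 to 57 TPM in LacZ livers, and FTH1, the ferritin heavy chain, at 168 to 205 against 258 to 331 TPM. The list median was -0.35 on the log2 scale, against 0.02 over all protein-coding genes, and 10 members were called lower without the 2 deepest livers, against 2.43% of all protein-coding genes. On deposited TPM only AKR1B10 and TXNRD1 of the list were called. FTH1 and AKR1B15 are named after their values were seen.

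Single genes of the cell surface and matrix, which formed no list of their own, also fell. CD24 (ENSG00000272398.6), a small glycoprotein anchored in the cell membrane, was at 4.35, 5.63, 5.93 and 4.83 TPM in HuR KD and at 47.6, 21.3, 60.5 and 32.3 TPM in LacZ livers. The HuR KD livers lay within a narrow range and every control was above it, and the rescaled level was 7.3 times lower (log2 fold change -2.71 ± 0.28 SE, adjusted p = 0.0059). ALCAM, an adhesion molecule of the immunoglobulin family, was at 14.8 to 17.7 TPM with knockdown and 28.7 to 41.5 TPM without. NID1, a basement membrane protein, was at 10.5 to 14.5 against 21.9 to 40.1 TPM, and LGALS3, a galactose-binding lectin, at 3.21 to 4.71 against 7.16 to 12.3 TPM. On rescaled TPM these 3 fell to 48.7%, 38.9% and 38.3% of control (adjusted p = 0.0175 each). ITGB1, the integrin beta-1 chain, and TM4SF4, a tetraspanin-like membrane protein of liver, fell to 53.9% and 41.7% (adjusted p = 0.0226 and 0.0216) and are named after their values were seen.

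CD24 is also a cholangiocyte marker, so the other markers of that list stand beside it. All 9 that passed the filter had negative rescaled log2 fold changes, with a list median of -1.05, and 4 of the 9 had an unadjusted p under 0.05, but CD24 alone passed the adjusted threshold. Over all protein-coding genes 7.84% were lower at the unadjusted and 0.554% at the adjusted threshold. With CD24 left out of the sum, the other 11 markers of the list totalled 14.8, 18.2, 20.2 and 49.1 TPM in HuR KD and 28.3, 62.7, 74.4 and 41.3 TPM in LacZ livers. The groups then overlapped only through HuR KD 4, 1 of the 2 deepest livers. EPCAM was at 1.78 to 15.3 TPM in HuR KD and 6.43 to 19.0 TPM in LacZ livers, and SOX9 at 1.7 to 3.3 against 2.83 to 5.29 TPM, so that both overlapped between the groups. SPP1 ranged from 0 to 2.56 TPM with knockdown and from 1.06 to 12.1 TPM without. ANXA4 was at 5.88 to 8.02 TPM in HuR KD and at 8.4 to 10.1 TPM in LacZ livers, without overlap. PKHD1 was at 1.72 to 3.26 against 3.09 to 5.88 TPM, with overlap. Neither ANXA4 nor PKHD1 passed the adjusted threshold (rescaled adjusted p = 0.2 and 0.271 in limma). The part of cholangiocytes in the lower levels of CD24, LGALS3, TM4SF4 and ALCAM was not tested.

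Other genes that fell encode intracellular proteins of varied roles. SCGN, a calcium-binding protein of endocrine cells, was at 0.433, 0, 0.437 and 0.669 TPM in HuR KD and at 4.34, 2.7, 7.84 and 5.79 TPM in LacZ livers, with 0 to 11 reads in a HuR KD liver (rescaled log2 fold change -2.93 ± 0.40 SE, adjusted p = 0.0175). TMSB10, a thymosin that binds actin monomers, was at 82 to 136 TPM against 196 to 290 TPM and fell to 44.3% of control. CKAP4, a membrane protein of the endoplasmic reticulum, fell by 1.15, WSB2, a substrate adaptor of ubiquitin ligases, by 1.35, SH3GLB1, a membrane-curving protein, by 1.1 and HSDL1, a dehydrogenase-like mitochondrial protein, by 1.19 on the log2 scale (rescaled, adjusted p from 0.0113 to 0.035). SLC38A1, a glutamine transporter, was at 0.512 to 0.549 TPM in HuR KD and at 2.05 to 5.03 TPM in LacZ livers, and SLC25A43, a mitochondrial carrier, at 1.87 to 2.94 against 5 to 7.99 TPM. PTGES3, a co-chaperone of HSP90, fell by 0.86.

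**Figure D3:**
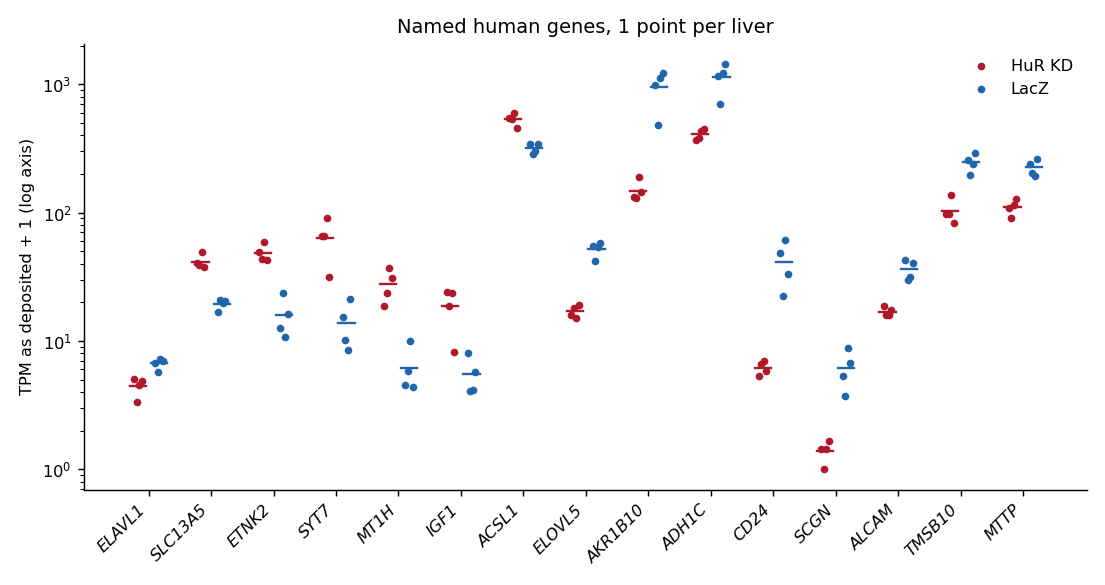
TPM as deposited plus 1 (log y axis) of 15 human genes (x axis), with 1 point per liver for HuR KD (red) and LacZ (blue) and a line at each group mean. The 4 HuR KD livers do not overlap the 4 LacZ livers in any of the 15 genes, most of which were picked among genes without overlap. LacZ 2 holds the lowest control value of AKR1B10, ADH1C, CD24 and SCGN.

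Among the genes that rose were transporters and enzymes of citrate, glutamate and phospholipid metabolism. SLC13A5 (ENSG00000141485.16), which takes citrate into hepatocytes, was at 39.2, 37.8, 48.1 and 36.4 TPM in HuR KD and at 15.9, 19.9, 18.6 and 19.4 TPM in LacZ livers. The rescaled level was 2.3 times higher (log2 fold change 1.20 ± 0.14 SE, adjusted p = 0.0113). ETNK2, an ethanolamine kinase of phosphatidylethanolamine synthesis, was at 47.9, 42.2, 57.8 and 42 TPM against 11.7, 22.7, 9.76 and 15.2 TPM, a rescaled rise of 3.31-fold (adjusted p = 0.0175). SLC1A2, a glutamate transporter, rose by 1.04 ± 0.15 (SE) and COQ10A, a mitochondrial coenzyme Q binding protein, by 1.71 ± 0.31 on the log2 scale. These 4 genes had no overlap between groups, which was a condition for naming them.

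Several genes that rose encode secreted or vesicle proteins. SYT7 (ENSG00000011347.9), a calcium sensor of vesicle fusion, was at 64.9, 64.3, 90.3 and 30.4 TPM in HuR KD and at 14.3, 9.12, 7.45 and 20.1 TPM in LacZ livers, 5.28 times higher after rescaling (adjusted p = 0.0175), with HuR KD 4 nearest to the controls. MEP1B, a subunit of the metalloprotease meprin, NRTN, a ligand of the GDNF family, and CNDP1, a serum carnosine dipeptidase, rose by 1.75, 1.61 and 1.26 on the log2 scale. IGF1, the growth factor that liver secretes under growth hormone, was at 22.9, 17.6, 22.6 and 7.26 TPM in HuR KD and at 7, 3.05, 3.13 and 4.76 TPM in LacZ livers, so that HuR KD 4 lay just above the highest control (rescaled log2 fold change 1.93 ± 0.35 SE, adjusted p = 0.036). IGF1 is named after its value was seen, as is SIRT5, a mitochondrial deacylase, which rose by 1.03. CYP1A1, the P450 that aryl hydrocarbon receptor ligands induce, was at 11.5 to 32.8 TPM against 4.92 to 10.2 TPM and was the only member called among 30 genes of P450 families 1 to 4 (adjusted p = 0.0419).

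Some genes of fatty acid oxidation rose on rescaled TPM. Of 42 members tested, 6 rose and 0 fell, where 0.363% of all protein-coding genes rose and 0.554% fell. Those that rose included ACSL1 and ACSL5, which activate long-chain fatty acids, SLC25A20, which carries acylcarnitine into mitochondria, ETFDH, which passes electrons to ubiquinone, and ACAA2, the last thiolase step. ACSL1 was at 548, 532, 592 and 456 TPM in HuR KD and at 342, 284, 298 and 340 TPM in LacZ livers, 1.79 times higher after rescaling (adjusted p = 0.0175). ACSL5 was at 112, 102, 148 and 116 TPM against 46.6, 67.8, 70.1 and 56.2 TPM, 2.08 times higher (adjusted p = 0.0247). In both genes every HuR KD liver was above every control.

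SLC25A20 rose 1.88-fold, ETFDH 1.7-fold and ACAA2 1.59-fold on rescaled TPM (adjusted p from 0.0263 to 0.0399). The list's median log2 fold change was 0.38 rescaled and 0.29 as deposited, against 0.02 over protein-coding genes and -0.05 over all genes, and 35 of its 42 members were positive. The list had 0 adjusted calls on deposited TPM and 14, all higher, on rescaled TPM without the 2 deepest livers, where 2.28% of all protein-coding genes were called higher. Among the 7 negative members, VNN1, a pantetheinase, had a rescaled log2 fold change of -0.45 and CYP4A11, which hydroxylates fatty acids, of -0.23, and neither passed the threshold (adjusted p = 0.308 and 0.424). SLC25A20, ETFDH and ACAA2 are named after their values were seen.

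**Figure D4:**
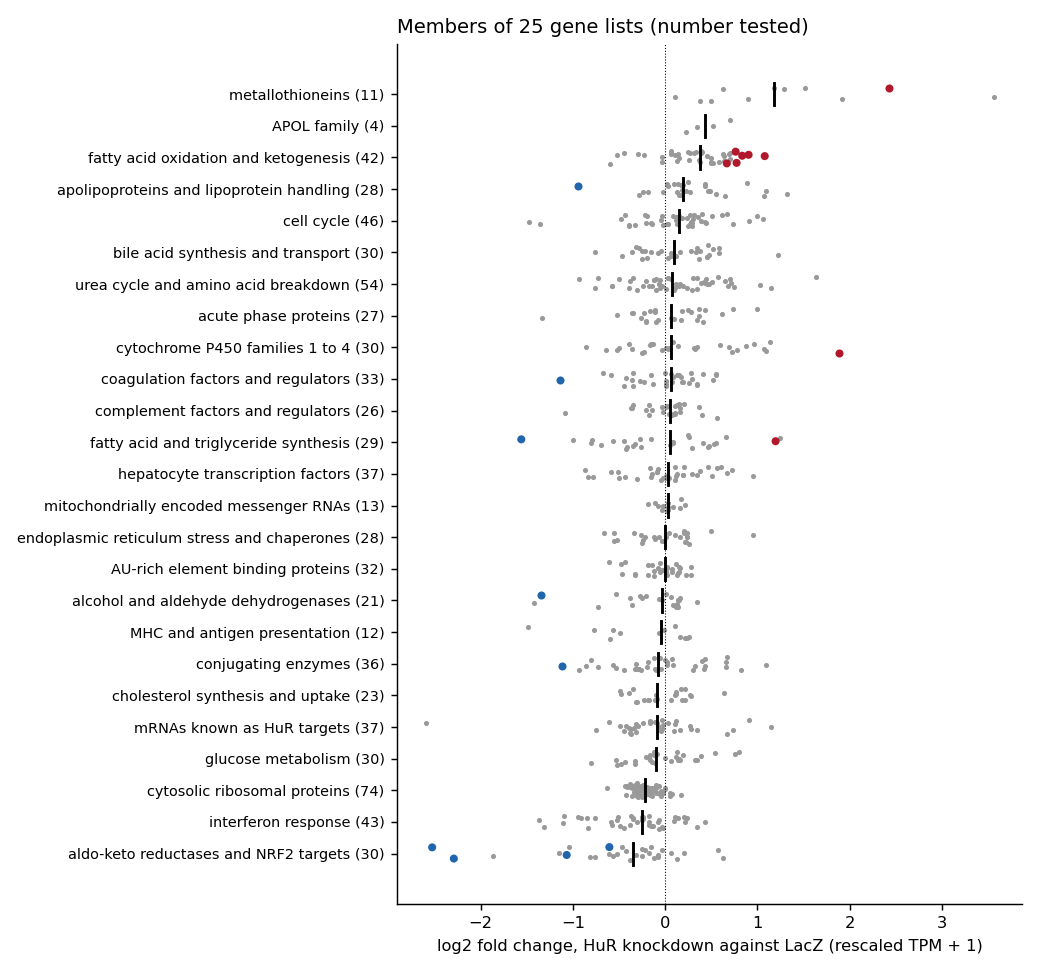
Rescaled log2 fold change of HuR KD against LacZ (x axis) for the tested members of 25 gene lists (y axis, number tested in brackets). Grey points did not pass an adjusted p of 0.05, red points rose, blue points fell and black bars are list medians, which run from -0.35 for aldo-keto reductases and NRF2 targets to 1.18 for metallothioneins.

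Protein-coding genes with and without a mouse gene of the same symbol were set side by side. Of 902 such protein-coding genes, 4 rose and 8 fell on rescaled TPM, and of 9024 with a same-symbol mouse gene, 32 rose and 47 fell. At the unadjusted threshold the shares were 12.7% and 15%, with a median TPM over genes of 3.81 and 6.73, and at a mean of at least 5 TPM, over all gene types on deposited TPM, 13.7% and 14.9%. On rescaled TPM at that mean, the unadjusted shares were 19.9% and 17%, the genes without a same-symbol mouse gene being the more often called. Without the 2 deepest livers the adjusted shares were 4.77% and 4.7% over all protein-coding genes, and 10.1% and 6.51% at a mean of at least 5 TPM. These are descriptions with no test of the difference.

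Some of the 12 called genes have mouse counterparts under other symbols, such as CD24 (mouse Cd24a) and TP53INP2 (mouse Trp53inp2), so a missing symbol is not a missing gene. OXER1, a receptor for the eicosanoid 5-oxo-ETE that mice lack, was at 11.9, 11.4, 12.2 and 10.3 TPM in HuR KD and at 7.22, 5.83, 5.31 and 5.51 TPM in LacZ livers, 2.03 times higher after rescaling (adjusted p = 0.0226). ATAD3C, a primate member of the mitochondrial ATAD3 family, was at 3.87, 3.29, 4.93 and 3.87 TPM against 0.904, 1.3, 1.09 and 0.308 TPM (log2 fold change 1.94 ± 0.32 SE, adjusted p = 0.0247). Its copies ATAD3A and ATAD3B are near-identical, which leaves the level of each uncertain. TP53INP2, a regulator of autophagy, rose by 1.24 ± 0.19 on the log2 scale.

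The remaining member that rose was a metallothionein, one of the small cysteine-rich proteins that bind zinc and copper and whose genes are expanded in human. MT1H (ENSG00000205358.3) was at 17.7, 22.8, 35.8 and 30.1 TPM in HuR KD and at 3.56, 4.79, 8.97 and 3.39 TPM in LacZ livers, from 4 to 38 reads in a control liver, and rose 5.36-fold after rescaling (adjusted p = 0.0175). MT1G was at 115, 128, 167 and 292 TPM against 21.9, 90, 67.4 and 32.7 TPM and did not pass the threshold (adjusted p = 0.0897), though it did without the 2 deepest livers (adjusted p = 0.0134). All 11 protein-coding members of the metallothionein list, which also holds a zinc sensor and transporters, had positive rescaled log2 fold changes, with a median of 1.18. Of these, 1 passed the adjusted and 4 the unadjusted threshold, which 0.363% and 6.97% of all protein-coding genes passed as higher. The MT1 genes are near-identical, so reads may be split among them.

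On the lower side, besides CD24, ADH1C and AKR1B15, the set held SUPT16H, SEPTIN11, HNRNPA1P48, TRIM16L and TMEM250. SUPT16H, a subunit of the histone chaperone FACT, was at 5.3, 3.79, 5.04 and 5.96 TPM in HuR KD and at 12.2, 9.65, 13 and 14.7 TPM in LacZ livers, 43.5% of the control after rescaling (adjusted p = 0.0175). SEPTIN11, a cytoskeletal GTPase, fell by 1.22 and HNRNPA1P48, listed as protein coding and a near copy of HNRNPA1, by 0.95 on the log2 scale. TRIM16L and TMEM250 fell to 34.8% and 47.5% of control and are named after their values were seen. Zinc finger genes with a ZNF symbol, none of which has a same-symbol mouse gene, had 0 adjusted calls among 312, with 7 higher and 8 lower at the unadjusted threshold on rescaled TPM, or 4.81% against 14.8% of all protein-coding genes.

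A further 15 called genes had a mouse gene of the same symbol with a mean under 1 TPM in WT livers, of which 11 rose and 4 fell in humanized livers. Over all 9926 protein-coding genes 0.363% rose and 0.554% fell. The number of genes tested in this class is not given here, so nothing is read from the split. SYT7 had a mean of 62.5 TPM in HuR KD livers and its mouse gene 0.267 TPM in WT livers, in tables that were scaled separately. FRMPD1, a scaffold protein, was at 3.58, 2.79, 3.72 and 0.961 TPM in HuR KD and at 0.13, 0.37, 0.274 and 0.104 TPM in LacZ livers, with 1 to 24 reads in a control (rescaled log2 fold change 2.45 ± 0.40 SE, adjusted p = 0.0247), and its mouse gene was listed at 0. HKDC1, a hexokinase-like protein, was at 10.3 to 11.6 TPM with knockdown against 14.9 to 43 TPM without, where LacZ 2 was the lowest control, and fell to 36.7% after rescaling (adjusted p = 0.0332). The mouse gene had a mean of 0.0979 TPM. FRMPD1 and HKDC1 are named after their values were seen.

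The remaining 64 of the 91 called genes had a mouse pair that passed the filter in WT livers. Across them the median absolute log2 fold change with HuR knockdown was 1.04 in humanized livers (rescaled TPM) and 0.13 in WT livers (deposited TPM). Of the 64, 29 had the same sign in both. When both sets of livers were fitted together with limma, the difference between the 2 knockdown effects passed an adjusted p of 0.05 in 60 of the 64, against 411 of all 8206 pairs (5.01%). The 64 were picked by their change in humanized livers, which enters this difference and makes the humanized median large. Nothing is therefore read from that share or from the contrast of the medians. The unadjusted p in WT livers was under 0.05 in 14, of which 8 moved in the same direction as in humanized livers. The matching shares over all pairs are not given here, so nothing is read from these counts or from the 29 of 64. SLC39A5, a zinc transporter of hepatocytes named after its values were seen, rose by 0.73 in humanized livers (rescaled TPM). It was 0.51 higher in WT livers, with an interaction adjusted p of 0.871 (both on deposited TPM). IGF1 had a log2 fold change of 1.93 in humanized livers (rescaled TPM) and -0.20 in WT livers (deposited TPM). Species, shRNA and host strain differ together between these sets, and their parts cannot be told apart.

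**Figure D5:**
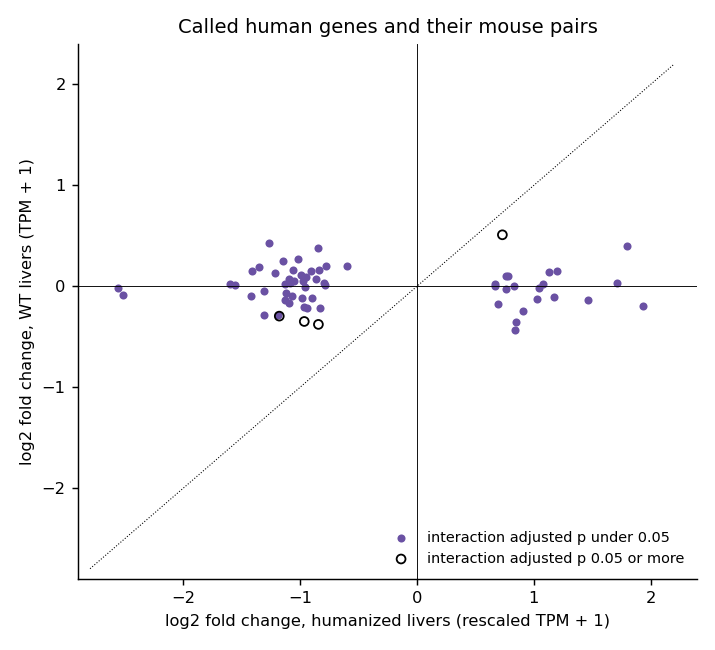
Log2 fold change with HuR knockdown in humanized livers (x axis, rescaled TPM + 1) and in WT livers (y axis, TPM + 1) for the 64 called human genes with a tested mouse pair. Filled points passed the interaction threshold (60 genes), open circles did not (4 genes), and the dotted line marks equal change. Most points lie near 0 on the y axis, where the median absolute value is 0.13. The genes were picked by their change on the x axis.

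Non-coding genes were tested on deposited TPM only, on which 24 of the 27 called genes were protein coding. The median TPM over genes was 1.96 for lncRNAs, 2.63 for processed pseudogenes and 6.44 for protein-coding genes, so the shares below are of genes at unlike levels. Of 1219 lncRNAs, 0 passed the adjusted threshold in limma, while 48 were higher and 46 lower at the unadjusted threshold, or 7.71% against 11.5% of all genes on deposited TPM. At the adjusted threshold the shares over all genes were 0.0314% higher and 0.181% lower. The 199 miRNA genes had 0 adjusted calls with 3 higher and 2 lower, in libraries of total RNA that do not select mature miRNAs. Among 588 processed pseudogenes 1 rose and 2 fell. AC016734.1 (ENSG00000228305.2) was at 7.84, 7.41, 7.92 and 15.6 TPM in HuR KD and at 30.3, 25.8, 38.8 and 33.7 TPM in LacZ livers (deposited log2 fold change -1.68, adjusted p = 0.0455). AC025449.1 rose on 4 to 15 reads in HuR KD against 0 to 4 reads in LacZ livers. RPL41P5 was listed at 0 in all HuR KD livers against 1, 5, 1 and 2 reads in LacZ livers, so its call rests on very few reads.

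The next genes of this kind by p did not pass the adjusted threshold. COX6B1P4, with means of 6.38 and 0.564 TPM, and MT1DP, a metallothionein pseudogene with means of 6.6 and 0.95 TPM, had adjusted p-values of 0.0775 and 0.083. AC022149.1, with means of 18.2 and 47 TPM, had an adjusted p of 0.0606. Processed pseudogenes share sequence with their parent genes, and how reads that match both were counted is not given in the sources used here.

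Lists of other liver functions had at most 1 called member in each direction on rescaled TPM. Over all protein-coding genes 0.363% rose and 0.554% fell. In lists of this size 1 call already lies above these shares, so nothing is read from single calls. Coagulation genes had 1 of 33 lower, VKORC1, which recycles vitamin K, at 7.52 to 14.6 TPM in HuR KD against 19.9 to 29 TPM in LacZ livers (rescaled adjusted p = 0.047). Conjugating enzymes had 1 of 36 lower and 0 higher. Fatty acid and triglyceride synthesis had ELOVL5 lower and SLC13A5 higher of 29, and lipoprotein handling had MTTP lower of 28, although 23 of the 28 members were positive with a median of 0.19. APOA5, which promotes triglyceride clearance, was at 314, 365, 578 and 426 TPM against 106, 252, 247 and 137 TPM with a rescaled adjusted p of 0.0837. CYP4F2, a P450 that hydroxylates vitamin E and leukotrienes, had means of 52.7 and 101 TPM (adjusted p = 0.0545).

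Several lists had 0 adjusted calls by limma on rescaled TPM. At the unadjusted threshold, which 6.97% of all protein-coding genes passed as higher and 7.84% as lower, their members were cholesterol synthesis (1 higher, 0 lower of 23), the APOL family (0 and 0 of 4), bile acids (6 and 2 of 30), the urea cycle and amino acids (9 and 4 of 54), glucose metabolism (4 and 2 of 30), complement (0 and 2 of 26), acute phase proteins (5 and 0 of 27) and antigen presentation (0 and 3 of 12). Also without an adjusted call were the interferon response (0 and 9 of 43), mitochondrial mRNAs (0 and 0 of 13), the cell cycle (5 and 2 of 46), endoplasmic reticulum stress (2 and 4 of 28), hepatocyte transcription factors (6 and 5 of 37) and AU-rich element binding proteins (0 and 3 of 32, HuR being 1 of the 3). SLC27A5, a bile acid ligase, had means of 97.5 and 46.3 TPM with an adjusted p of 0.0594. NR1I3, the nuclear receptor CAR, was at 23.5 to 27.6 TPM in HuR KD against 14.1 to 20 TPM in LacZ livers (adjusted p = 0.0837), and FOXA1, a pioneer factor, at 4.36 to 7.84 against 8.97 to 13.1 TPM (adjusted p = 0.0952).

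Cytosolic ribosomal protein genes had 0 adjusted calls and negative rescaled log2 fold changes in 70 of 74 members, with a median of -0.22 and 18 of them lower and 0 higher at the unadjusted threshold, and 31 lower on deposited TPM. Over all protein-coding genes 7.84% were lower on rescaled TPM, and over all genes 7.87% on deposited TPM. RPL26 was at 28.2 to 45.6 TPM in HuR KD against 54.9 to 75.8 TPM in LacZ livers (adjusted p = 0.11). Interferon response genes had 35 of 43 negative values with a median of -0.25. CXCL10, a chemokine induced by interferon, was at 42.6, 52, 60.1 and 24.5 TPM against 72.4, 121, 113 and 89.2 TPM (adjusted p = 0.102), with a rescaled log2 fold change of -1.10 that was -0.69 without the 2 deepest livers. IFITM2, an antiviral membrane protein, had means of 7.37 and 14 TPM (adjusted p = 0.107). Without the 2 deepest livers, APOA5, CYP4F2, SLC27A5, NR1I3, FOXA1, RPL26 and IFITM2 passed the rescaled threshold (adjusted p from 0.00573 to 0.0432).

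Of 37 mRNAs known from other systems as HuR targets, 0 passed the adjusted threshold, 2 were higher and 6 lower at the unadjusted threshold, where 6.97% of all protein-coding genes were higher and 7.84% lower, and the median log2 fold change was -0.09. THBS1, a secreted matrix protein, was at 1.19, 1.64, 1.58 and 0.896 TPM in HuR KD and at 13.1, 1.81, 21.5 and 18 TPM in LacZ livers. The groups did not overlap, but LacZ 2 lay close to the HuR KD livers. With all 8 livers the rescaled log2 fold change was -2.59 ± 0.59 (SE) with an adjusted p of 0.0672, and without the 2 deepest livers it was -3.17 with an adjusted p of 0.000394. Of this list, HuR itself counts among the 6 lower genes. Over the whole list 12 rescaled log2 fold changes were positive and 25 negative. Without the 2 deepest livers 1 member, CCND1, was called higher (adjusted p = 0.0464) and 1, THBS1, lower. CCND1 was at 72.5, 59.9, 72.7 and 60.9 TPM in HuR KD and at 41.2, 29.8, 53.5 and 57.5 TPM in LacZ livers. Its groups did not overlap, and with all 8 livers the rescaled log2 fold change was 0.67 ± 0.16 (SE, adjusted p = 0.0754). CDKN1A, the other gene higher at the unadjusted threshold, had means of 44.9 and 26.5 TPM with overlapping groups (rescaled adjusted p = 0.164).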

How the data were processed

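Stranded total RNA libraries were sequenced as read pairs. The authors trimmed the reads, mapped those of humanized livers by HISAT2 against a joint index of both genomes (GENCODE human v32 and mouse M23), counted them per gene with featureCounts and deposited TPM. The TPM formula is not given in the sources used here. Each deposited TPM column sums to 1000000 over human genes.

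From these values, log2(TPM + 1) was compared with limma 3.58.1 in R 4.3.3 (lmFit and eBayes with trend, no covariate), HuR KD minus LacZ, keeping genes whose mean TPM reached 1, as deposited and rescaled over protein-coding genes. P-values were adjusted by Benjamini-Hochberg over all genes tested. Fold changes of low genes are understated by the pseudocount. Single values were compared by exact permutation over 70 groupings. Reads were recovered as whole multiples of TPM for 18702 of 18702 genes above 0 in at least 4 livers (tolerance 0.02), which gives the depth and shows which low values rest on few reads. Tested on simulated data, limma recovered 73% (as deposited, 12738 genes) and 86% (rescaled, 9926 genes) of 200 genes shifted by 1.5 on the log2 scale after adjustment. The simulated livers were drawn independently with the fitted spread, without the likeness of HuR KD 4 and LacZ 2. These shares are therefore not rates for the real livers.

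The text names HuR, the 15 genes of smallest p in each direction among those whose groups did not overlap, for genes with no same-symbol mouse gene the 5 protein-coding and 3 other genes per direction, up to 2 per direction of each list, and 3 per direction called in 1 scaling only. Not every gene of a list is described, and some genes that the rule names are not reported here. Genes and lists were chosen with earlier results of these data known. Symbols held as dates (7 members) were not matched to mouse genes, and 90 members share a symbol with another and were not named. Alternatives were another pseudocount and filter, 2 other normalizations, no trend, a replicate block, omission of each liver in turn, TPM without mitochondrial ribosomal RNA, and voom on recovered reads. Leaving out or blocking the 2 deepest livers was chosen after seeing the data. The replicate numbers do not pair the livers (correlation of deviations from 0.137 to -0.249). Python 3.11.15, numpy 2.4.6, pandas 2.3.3 and matplotlib 3.10.9 were used.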

Additional observations from a re-analysis of the deposited data

Results flagged for a closer look

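In 5 of 152 groups of 4 livers of named genes that were tested, 1 liver lay far from the other 3 by Dixon's criterion. Chance meets this criterion in about 1 group of 20. Many of the genes were named for a small p or for groups without overlap, so nothing is read from the count. Each time the liver was HuR KD 4 or LacZ 2, the 2 deepest livers. LYZ, at 67.3 TPM in HuR KD 4 and 6.32 to 10.6 TPM in the other HuR KD livers, is not among the 5. LacZ 2 was at 3.49 TPM for CNDP1, 2.26 TPM for COX6B1P4 and 5 TPM for SLC25A43, while HuR KD 4 was at 15.6 TPM for AC016734.1 and 1.87 TPM for SLC25A43.

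The log2 fold change with HuR knockdown differed between humanized and WT livers (interaction adjusted p under 0.05, deposited TPM) for 37 of 42 named genes with a tested mouse pair, against 5.01% of all pairs. CCND1 was not among the 42. Most were named for their change in humanized livers, which enters this difference, so nothing is read from that share. Differences are humanized minus WT. Among transporters and other raised genes it was 0.936 for SLC13A5, 1.27 for ETNK2, 0.952 for SLC1A2, 1.5 for COQ10A, 1.06 for AGPAT2, 1.25 for NR1I3, 1.45 for APOA5, 1.14 for SLC27A5, 1.01 for SIRT5 and 1.9 for IGF1. For fatty acid oxidation genes it was 0.96 for ACSL5, 1.18 for ACSL1, 1.06 for SLC25A20, 0.578 for ETFDH and 0.564 for ACAA2.

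Among genes with lower levels in humanized livers, the difference was -1.62 for ELOVL5, -2.52 for AKR1B10, -0.771 for HSDL1, -1.53 for WSB2, -1.34 for ALCAM, -1.3 for NID1, -0.949 for SH3GLB1, -1.43 for CKAP4, -0.977 for LGALS3, -1.03 for TXNRD1, -0.803 for MTTP and -1.19 for VKORC1. It was -1.04 for IFITM2, -0.904 for RPL26, -0.654 for RPL32, -0.899 for FOXA1, -2.25 for THBS1, -1 for PTGES3, -1.43 for TM4SF4, -1.56 for RCAN2, -0.864 for ITGB1 and -0.891 for FTH1.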

How the results depend on the processing

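None of the named genes followed through the alternatives changed direction. Adjusted calls on deposited TPM (27) became 3 without mitochondrial ribosomal RNA, 0 without trend (1418 at the unadjusted threshold), 60 at a mean TPM of at least 5, 66 with median-of-ratios factors, 56 with quantile normalization, 1 with no filter, 63 with voom on recovered reads, and 99 without or 127 with a block for the 2 deepest livers. Rescaled calls (91) became 49 without trend, 43 with no filter, 137 with quantile normalization, and 467 without or 468 with that block. Leaving out 1 liver gave 0 to 163 deposited and 3 to 283 rescaled calls. At the unadjusted threshold, 931 genes were called on deposited TPM at a mean TPM of at least 5, against 1461. The split of these calls moved too: 47.5% were higher with median-of-ratios factors, 47.3% with quantile normalization and 44.1% with voom, against 31.3% over all gene types. Among genes with no same-symbol mouse gene, 13.7% were called at a mean TPM of at least 5, against 8.23%.

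With replicate number as a block, 0 deposited (1401 unadjusted) and 1 rescaled call remained, and the numbers mark no shared origin. With an exact permutation within replicate number, the HuR difference of -2.211 TPM had p = 0.125, the smallest possible. Without 1 liver it was -1.846 to -2.511 TPM, with an exact permutation p of 0.0571 without HuR KD 2. The difference in mitochondrial ribosomal RNA share, 1.05 percentage points, was -3.165 to 5.592 without 1 liver. The cause of these shifts was not tested. Depth limits low genes, since 1 read of RPL41P5 was 3.3 TPM in LacZ 1.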
